A study of Ciona robusta with 6 samples.

Results

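The Sox genes of the adult Ciona robusta heart were followed across 3 dissected heart parts. Members were all symbols of the deposited expression table that begin with sox, in any case and after removal of a ci- prefix. This gave 5 genes of 793, namely soxB1, soxB2, soxC, soxF and soxh. No other Sox symbol was analysed here. The table's identifiers matched none of the RefSeq gene entries at hand (0 of 793), so no coordinates or sequences are given. The gene lengths implied by the values run from 2420 bases for soxh to 2968 bases for soxB2.

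Sox proteins are transcription factors that bind and bend DNA through a single HMG box, and they usually act together with a partner factor at their targets. Animals share a small set of Sox groups, named by letters. In vertebrates, group B1 members keep neural progenitors undifferentiated, and group B2 members counter them. Group C members act in differentiating neurons and in mesenchyme, including the cushions of the cardiac outflow tract. Group F members act in the endothelium of blood and lymph vessels, and group H has a testis member needed for sperm formation in the mouse. These are vertebrate roles, given as background; tunicate vessels lack a true endothelium.

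Tissue came from wild-caught adult animals, and no treatment or genetic change was applied. The groups were the pharyngeal blood sinus (PS), the stomach blood sinus (SS) and the central cardiac tube (C), with 2 libraries each. Pieces from several hearts were pooled for each library, pericardial cells were taken off, and the sinus pieces kept a little of the adjoining myocardium. The labels do not say whether the pooled animals of the replicates differ, so p-values measure the spread between these libraries. Levels are given in FPKM, which here scales by gene length and by a size factor per library, not by each library's own total. The size factor, a median ratio, multiplies the geometric mean of the library totals, which is the same for all libraries. These totals are those of the 793 listed genes and not of the whole library. The adjusted values behind the FPKM summed to between 1412759 and 1950483 per library. Between 782 and 787 genes were above 0, and the true sequencing depth is unknown. Heart muscle symbols were high in all 3 parts: the summed FPKM of tropm1, smyd1 and nk4 was 7047 and 7383 in the PS, 7905 and 8179 in the SS, and 10203 and 9436 in the cardiac tube. None of these 3 markers was at 0 in any library.

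The family split into an abundant and a scarce set in every heart part. The genes soxC, soxB2 and soxF lay between 84.4 and 313 FPKM over all 6 libraries, and soxh and soxB1 lay between 0.470 and 31.9 FPKM. In the PS the order of means was soxC (308 ± 6.33 FPKM), soxB2 (250 ± 10.1), soxF (181 ± 3.31), soxB1 (5.79 ± 6.44) and soxh (3.92 ± 1.10; SD, n = 2 each). The 3 upper PS values were separated by more than their spread, and the ranges of soxB1 and soxh overlapped. Spreads here are of values from which 1 factor of unwanted variation had been taken out, not of the reads. In the SS soxB2 (230 ± 39.0 FPKM) stood ahead of soxC (204 ± 11.5), but their libraries overlapped, and soxF (142 ± 18.5), soxh (27.5 ± 6.15) and soxB1 (0.605 ± 0.191) followed without overlap. In the cardiac tube soxC (241 ± 18.1 FPKM), soxB2 (163 ± 30.8) and soxF (90.0 ± 7.92) were again in that order without overlap, and soxh (3.46 ± 0.0425) and soxB1 (2.86 ± 2.28) overlapped. At their highest, soxC ranked 186 and soxB2 203 of the 793 genes by FPKM, both in PS replicate 2.

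**Figure D1:**
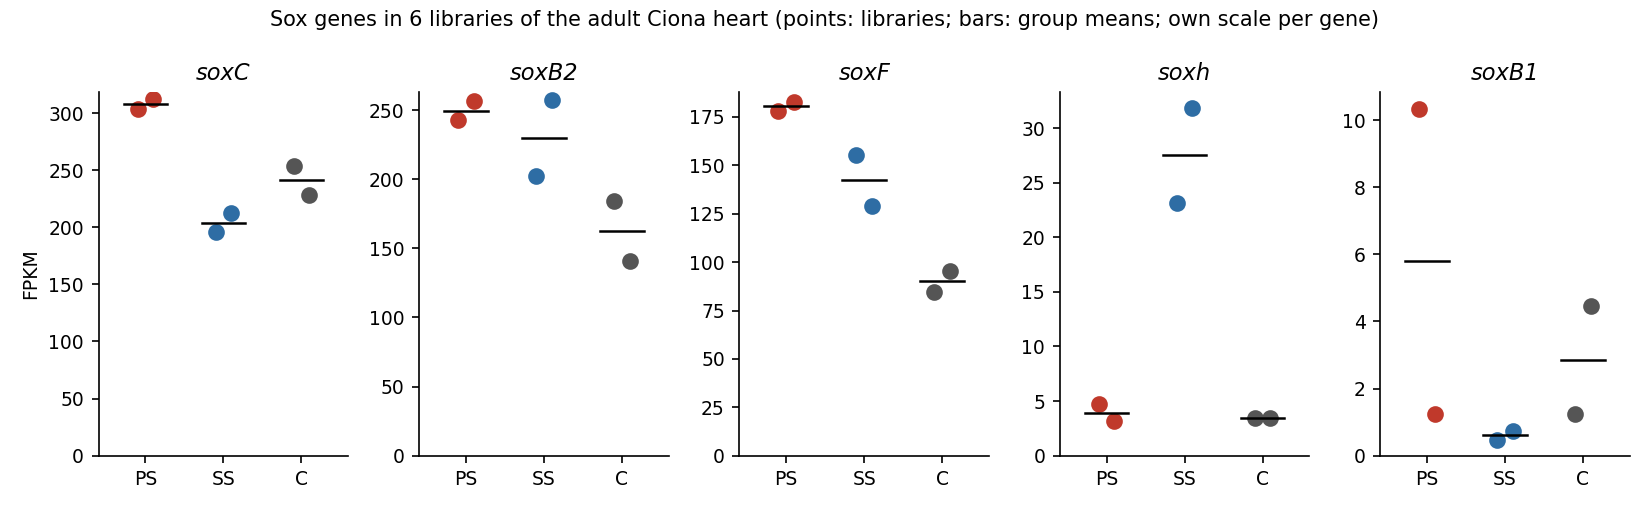
FPKM (y axis, linear from 0, own scale per gene) of the 5 Sox genes in the pharyngeal blood sinus (PS), the stomach blood sinus (SS) and the cardiac tube (C); points are libraries and bars are means of 2. For soxF both PS libraries (178 and 183 FPKM) and both SS libraries lay above both cardiac tube libraries, and for soxh both SS libraries (23.2 and 31.9 FPKM) lay above the other 4.

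Each sinus was set against the cardiac tube, and the sinuses against each other, for genes that differ along the axis of the heart. Of the 5 Sox genes 1 passed in the PS against the cardiac tube at a limma adjusted p under 0.05, soxF, where 7.44% of all genes passed (5.04% higher and 2.40% lower). In the SS against the cardiac tube 1 passed, soxh, where 1.64% of all genes passed (1.26% higher and 0.378% lower). Between PS and SS 1 passed, soxh again, lower in the PS, where 1.26% of all genes passed (0.757% higher and 0.504% lower). With the sinuses averaged, soxF passed against the cardiac tube, beside 6.18% of all genes (3.28% higher and 2.90% lower). At an unadjusted p under 0.05, soxF, soxB2 and soxC were higher in the PS than in the cardiac tube, where 23.3% of all genes had such a p (12.5% higher). In the SS soxh, soxF and soxB2 were higher than in the cardiac tube, where 23.0% of all genes had such a p (10.8% higher). Between PS and SS soxC was higher and soxh lower, where 14.9% of all genes had such a p (7.69% higher and 7.19% lower). With the sinuses averaged, soxF, soxh and soxB2 were higher, where 26.5% of all genes had such a p (13.7% higher). The median log2 fold change of the 5 genes was 0.52 in the PS and 0.50 in the SS, beside medians of 0.00 and 0.02 over all genes. The comparisons with C share the same 2 cardiac libraries.

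**Figure D2:**
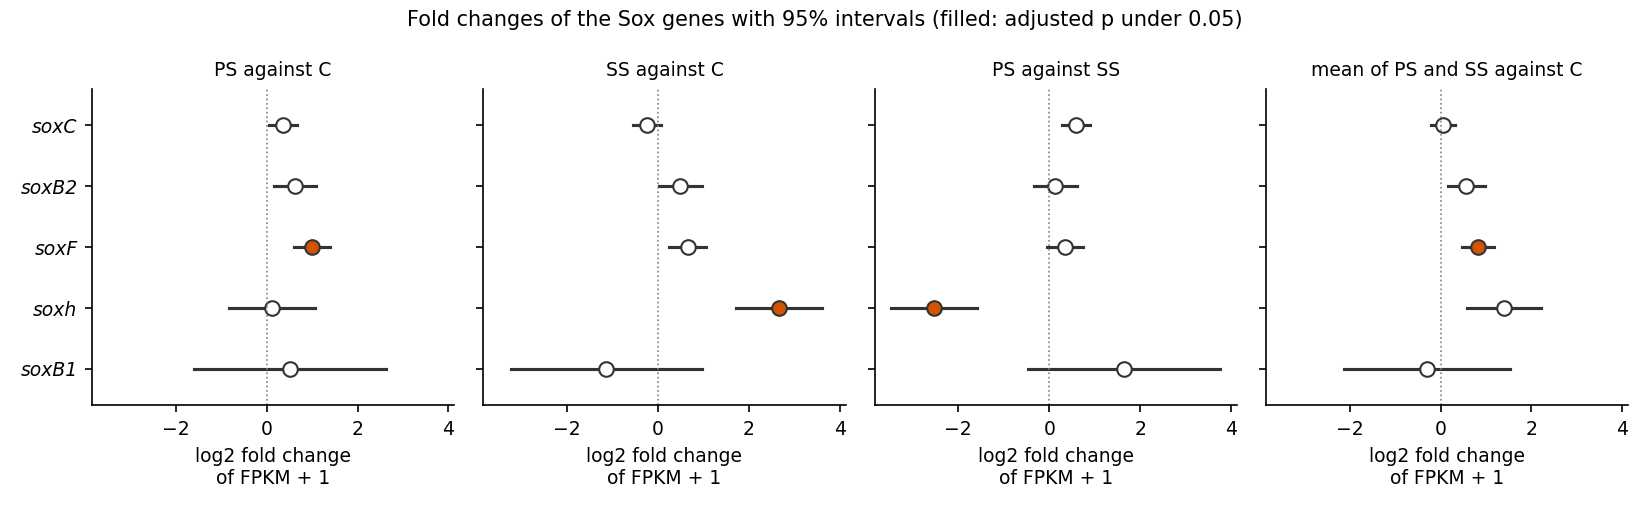
Log2 fold change of FPKM + 1 (x axis) of each Sox gene in 4 comparisons, with 95% intervals from limma; filled points have an adjusted p under 0.05. The interval of soxF lay above 0 in each comparison with the cardiac tube, soxh differed in the SS, and the intervals of soxB1 were the widest of the 5.

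The gene soxF, the Ciona member of the group that in vertebrates acts in vessel endothelium, was higher in the PS than in the cardiac tube. It had 178 and 183 FPKM in the PS, 155 and 129 FPKM in the SS, and 84.4 and 95.6 FPKM in the cardiac tube. All 4 sinus libraries were above both cardiac libraries, as were those of many genes: groups did not overlap for 61.7% of all genes between PS and C and for 61.4% between SS and C. The ratio of means was 2.01 for PS over C, with a log2 fold change of 1.0 ± 0.17 (SE, 95% interval 0.59 to 1.41, adjusted p = 0.0272). For SS over C the ratio was 1.58 and the log2 fold change 0.65 ± 0.17 (interval 0.25 to 1.06), which did not pass (adjusted p = 0.109, unadjusted p = 0.00766). The direct difference between PS and SS was 0.35 ± 0.17 (interval -0.06 to 0.75, adjusted p = 0.413), so a difference between the sinuses was not shown. With both sinuses averaged, soxF was higher than in the cardiac tube by 0.83 ± 0.14 on the log2 scale (adjusted p = 0.0344). In these pooled tissue libraries, more cells that express a gene and more RNA per cell cannot be told apart.

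Over 16 alternatives the soxF fold change in the SS against C lay between 0.47 and 1.07 and passed in 2 of them. In the PS against C it lay between 0.84 and 1.41 and passed in 12 of them. It did not pass without cardiac tube replicate 1 (0.84, adjusted p = 0.237) or replicate 2 (1.16, adjusted p = 0.189), with no trend in the variance (adjusted p = 0.0788), or with a replicate block added (adjusted p = 0.138). The averaged comparison lost its call in the same settings and without either SS library (adjusted p = 0.078 without replicate 1 and 0.0605 without replicate 2).

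Other regulators tied to vessel and blood development in vertebrates were set beside soxF, from a list of 10 symbols. One was higher in the PS than in C, fli/erg1, an ETS family factor (adjusted p = 0.0385), which had 80.4 and 72.2 FPKM in the PS, 68.4 and 66.1 FPKM in the SS, and 34.6 and 38.5 FPKM in the cardiac tube. None passed in the SS by limma, where 3 had a higher and 1 a lower level at an unadjusted p under 0.05. The median log2 fold change of the list was 0.01 in the PS and 0.07 in the SS, close to that of all genes. Its other fli/erg and ets/pointed symbols went both ways. In the PS and the SS against C, the log2 fold changes of ets/pointed1 were 1.13 and 0.88. Those of fli/erg4 were -0.35 and -0.38 and those of ets/pointed2 -0.08 and -0.16, and none of these passed. The Notch ligand symbol delta-like had a log2 fold change of 1.58 ± 0.41 in the PS (adjusted p = 0.0743) and 1.39 ± 0.41 in the SS (adjusted p = 0.124). The symbol klf2, named for a factor that responds to shear stress in vertebrates, had -0.10 ± 0.10 and -0.36 ± 0.10 in the same comparisons (adjusted p = 0.649 and 0.119).

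Across the 6 libraries, the genes outside the family with the pattern most like soxF included LOC494357 (Pearson r = 0.998 of log2(FPKM + 1)) and LOC778553 (0.996), among 775 genes with a mean of at least 1 FPKM. LOC494357 had 10.6 and 10.9 FPKM in the PS, 9.11 and 7.64 FPKM in the SS, and 4.41 and 4.95 FPKM in the cardiac tube. The points share library and scaling, and with 6 of them these correlations are a description.

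The gene soxB2 had 243 and 257 FPKM in the PS, 202 and 257 FPKM in the SS, and 185 and 141 FPKM in the cardiac tube. Each sinus library was above each cardiac library, a common pattern here. Groups did not overlap for 61.7% of all genes between PS and C and for 61.4% between SS and C. The ratio of means over C was 1.53 in the PS and 1.41 in the SS. The log2 fold changes were 0.63 ± 0.19 in the PS (95% interval 0.16 to 1.10, adjusted p = 0.115) and 0.50 ± 0.19 in the SS (0.03 to 0.97, adjusted p = 0.193), and neither passed. Averaged over the sinuses it was 0.56 ± 0.17 (adjusted p = 0.108). Between the sinuses the difference was 0.13 ± 0.19 with an interval of -0.34 to 0.60 (adjusted p = 0.84). Of 16 alternatives, soxB2 passed in 2 for the PS, 1 for the SS and 4 for the averaged sinuses, and single libraries moved its values. Without cardiac tube replicate 2 it was 0.31 in the PS (adjusted p = 0.436), 0.18 in the SS (0.634) and 0.24 averaged (0.473), and without cardiac tube replicate 1 it was 0.95 (0.214), 0.82 (0.31) and 0.88 (0.237). In the SS it was 0.75 without SS replicate 1 (adjusted p = 0.175) and 0.24 without SS replicate 2 (0.527). The averaged value passed without PS replicate 1 (0.59, adjusted p = 0.0246) or replicate 2 (0.53, 0.048). With libraries scaled to the total of the table, soxB2 passed in the PS (1.03, adjusted p = 0.00867) and in the SS (0.91, 0.026). That scaling also moved the median of all genes upward in both comparisons, by amounts given with soxC below. These calls therefore include a shift that is not particular to soxB2.

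The gene soxC was the most abundant member in the PS and in the cardiac tube, and its sinus levels were the furthest apart of the abundant members. It had 304 and 313 FPKM in the PS, 196 and 212 FPKM in the SS, and 254 and 229 FPKM in the cardiac tube, so that the cardiac tube lay between the sinuses and no groups overlapped. Groups that did not overlap were also seen for 51.5% of all genes between PS and SS, 61.7% between PS and C and 61.4% between SS and C. The ratio of means was 1.51 for PS over SS, with a log2 fold change of 0.59 ± 0.13 (95% interval 0.28 to 0.91), which did not pass (adjusted p = 0.104, unadjusted p = 0.00341). Its value stayed between 0.51 and 0.68 over the 16 alternatives, and it passed in 1 of them, without the term for the removed factor (adjusted p = 0.0274). Against the cardiac tube the PS had a log2 fold change of 0.35 ± 0.13 (0.04 to 0.66, adjusted p = 0.163). It passed in 3 of 16 alternatives, without the factor term (adjusted p = 0.0445), with scaling to the total (0.76, adjusted p = 0.0122) and with if-a left out of that total (0.64, adjusted p = 0.0393), and it was 0.23 without cardiac tube replicate 2 (adjusted p = 0.473). For the SS against the cardiac tube it was -0.24 ± 0.13 (-0.55 to 0.07, adjusted p = 0.321), a sign that turned to 0.17 when libraries were scaled to the total of the table and to 0.09 with if-a left out of that total. That scaling moved the median of all genes by 0.43 on the log2 scale in the SS and by 0.40 in the PS, so relative to the typical gene soxC was still lower in the SS.

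Neural and sensory symbols, the context in which group B and C genes are best known, were counted from a list of 12. In the PS against C 5 were higher and 1 lower, and the median log2 fold change was 2.27. Among them were gnrh1, a gonadotropin-releasing hormone gene (adjusted p = 0.0183), and opsin3 (adjusted p = 0.0273), and the lower one was ache, acetylcholinesterase. In the SS none passed by limma, with 4 higher and 1 lower at an unadjusted p under 0.05. The proneural gene neurogenin had 13.4 and 16.4 FPKM in the PS, 10.3 and 1.29 FPKM in the SS, and 0 and 1.23 FPKM in the cardiac tube, and it did not pass in the PS (adjusted p = 0.0639). The narrower nerve marker list (9 symbols) summed to 464 and 312 FPKM in the PS, 93.8 and 106 FPKM in the SS, and 46.8 and 63.0 FPKM in the cardiac tube. In it, gnrh1 and gnrhr1 were at 0 in cardiac tube replicate 2. The part of nerve tissue in the Sox values was not tested.

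**Figure D3:**
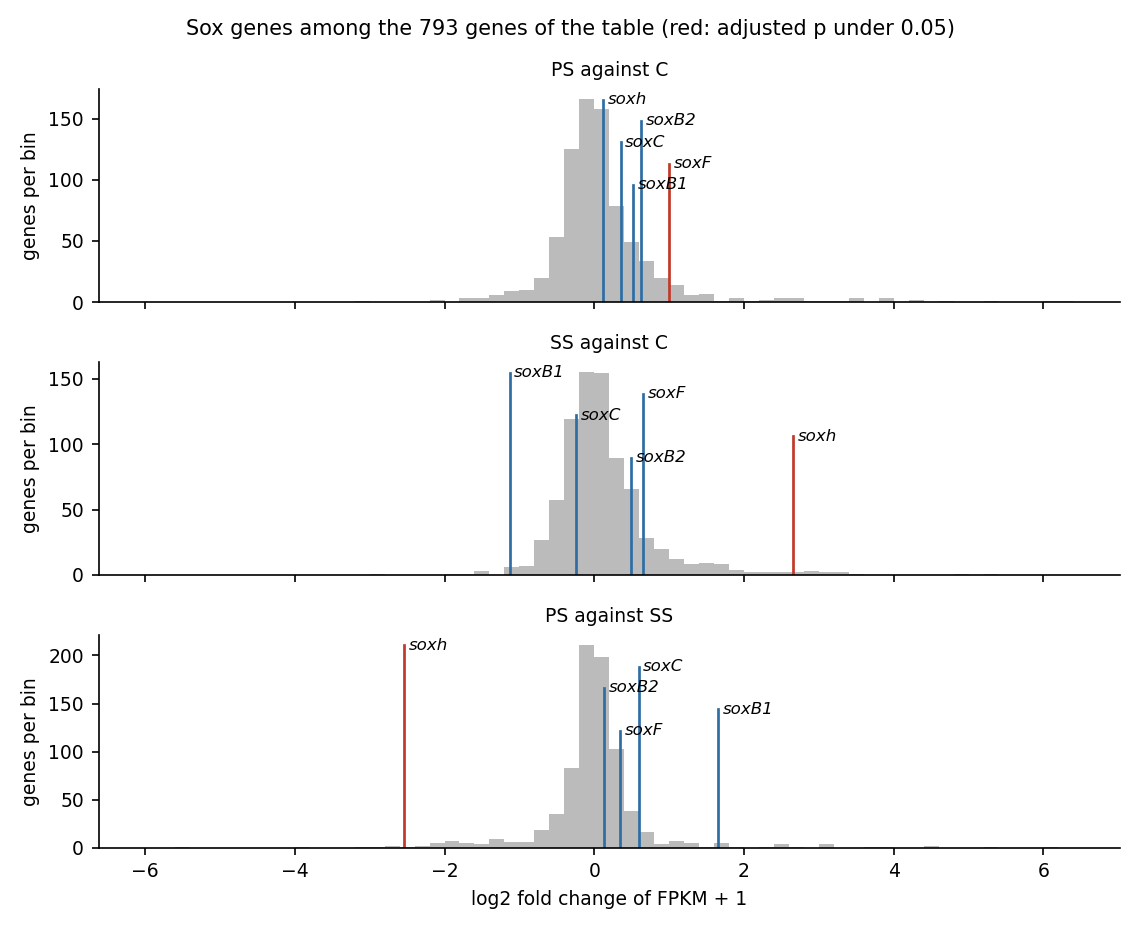
Histograms of the log2 fold change of all 793 genes (x axis, FPKM + 1; y axis, genes per bin of 0.2) in 3 comparisons, with the Sox genes as lines; red lines have an adjusted p under 0.05. The line of soxF stands at 1.0 for PS against C, and those of soxh stand at 2.66 for SS against C and -2.54 for PS against SS, in the thin tails.

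The gene soxh belongs to group H, the group with a member active in the testis of mammals, and it was higher in the SS than in the other parts. It had 4.70 and 3.14 FPKM in the PS, 23.2 and 31.9 FPKM in the SS, and 3.43 and 3.49 FPKM in the cardiac tube. Both SS libraries were above the other 4, and PS and C overlapped. Of all genes, 61.4% had no overlap between SS and C and 51.5% had none between PS and SS. The SS mean was 7.96 times that of the cardiac tube and 7.02 times that of the PS. The limma log2 fold change was 2.66 ± 0.38 for SS over C (95% interval 1.72 to 3.60, adjusted p = 0.0438) and -2.54 ± 0.38 for PS over SS (-3.48 to -1.60, adjusted p = 0.0457). For PS over C it was 0.12 ± 0.38 with an interval of -0.82 to 1.06 (adjusted p = 0.905). Averaged over the sinuses it was 1.39 ± 0.33 and did not pass (adjusted p = 0.0613). This averaged value passed in 4 of 16 alternatives, and it was 1.55 without PS replicate 2. The adjusted values behind these levels were 18 and 12 in the PS, 93 and 122 in the SS, and 13 and 14 in the cardiac tube.

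The sign of soxh in the SS against C and in the PS against the SS held in all 16 alternatives, and the calls did not. Against the cardiac tube 7 alternatives passed. The call was lost without SS replicate 1 (2.97, adjusted p = 0.113) or replicate 2 (2.35, 0.159), without cardiac tube replicate 1 (2.65, 0.31) or replicate 2 (2.67, 0.274), with a pseudocount of 10 (1.47, 0.0505) or 0.1 (2.94, 0.0646), with adjusted values (2.89, 0.0821), with no trend in the variance (0.0769) and with a replicate block added (0.24). For PS over SS 8 passed, and the call was lost without SS replicate 1 (-2.85, 0.109) or replicate 2 (-2.22, 0.294) and, at an unchanged -2.54, without cardiac tube replicate 1 (0.252) or replicate 2 (0.258), with genes of low mean left out (0.0843) and with a replicate block added (0.259). It was also lost with a pseudocount of 0.1 (-2.79, 0.0723) and with adjusted values (-2.77, 0.07).

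Germline, sperm and axonemal symbols, the setting in which group H is known in the mouse, were set beside soxh. Of a list of 12, 3 passed higher in the SS against C: dead1a (adjusted p = 0.0438), a DEAD-box gene by its symbol, dlc (adjusted p = 0.0438), and dnal1, an axonemal dynein light chain by its symbol (adjusted p = 0.0495). In all, 11 of the 12 had a positive fold change and 9 an unadjusted p under 0.05, with a median log2 fold change of 1.96, beside 0.02 over all genes. The exception was s-themis-a, a self-recognition gene of Ciona fertilization (-0.30 ± 0.34, adjusted p = 0.62). In the PS against C none passed by limma, with 0 higher and 2 lower at an unadjusted p under 0.05 and a median of -0.24. Between PS and SS all 12 had negative values, with a median of -2.03, and dlc and dead1a passed. The list and soxh were chosen with earlier results of these libraries known, so the count is a description. The germ cell and sperm marker list (10 symbols) is the list of 12 without dlc and kif3b, axonemal symbols included, so it is no separate evidence. It summed to 172 and 92.2 FPKM in the PS and to 310 and 806 FPKM in the SS. In the cardiac tube the sum was 157 and 117 FPKM, and no marker was at 0 in any library. The part of this list in the level of soxh was not tested.

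The SS libraries differed to an unequal extent within this list. The ratio of SS replicate 2 to replicate 1 was 1.38 for soxh, 1.56 for dead1a, 1.43 for s-themis-b, 0.976 for dlc and 0.794 for kif3b, a kinesin gene by its symbol. For 7 symbols picked after their values were seen (ci-rsp4/6, ci-rsp9 and rsp3 of the radial spoke, tektinA1, tektinB1, dnal1 and lrr37) it lay between 2.35 and 3.20, with a median of 3.13, where the median over 785 genes was 1.02. The genes most like soxh over the 6 libraries were the zinc finger gene zf(c2h2)-43 (r = 0.990), stip (0.986) and ekn1 (0.985). The gene zf(c2h2)-43 had 1.14 and 0.571 FPKM in the PS, 19.0 and 39.3 FPKM in the SS, and was listed at 0 in both cardiac libraries. By contrast stip varied little, with 57.4 and 55.2 FPKM in the PS, 70.8 and 69.9 FPKM in the SS, and 55.9 and 57.5 FPKM in the cardiac tube.

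**Figure D4:**
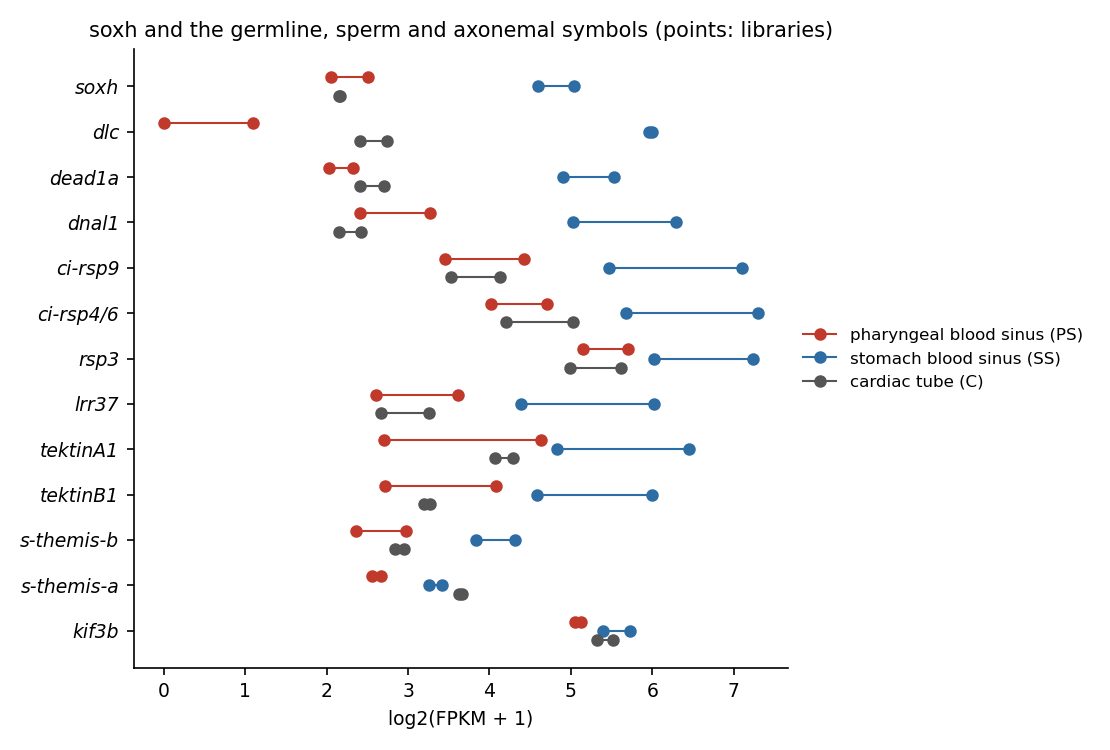
Log2(FPKM + 1) (x axis) of soxh and the 12 germline, sperm and axonemal symbols in the 3 heart parts; points are libraries, joined within a part. The SS points of soxh (23.2 and 31.9 FPKM) lie apart from those of PS and C, and the SS libraries of the radial spoke and tektin genes are further from each other than those of soxh.

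The gene soxB1, of the group that keeps neural progenitors undifferentiated in vertebrates, was near the lower end of the table, and its replicates disagreed. It had 10.3 and 1.23 FPKM in the PS, 0.470 and 0.740 FPKM in the SS, and 1.24 and 4.47 FPKM in the cardiac tube. The adjusted values were 42 and 5 in the PS, 2 and 3 in the SS, and 5 and 19 in the cardiac tube. The PS replicates thus differed 8.38-fold and the cardiac replicates 3.59-fold. The log2 fold changes were 0.52 ± 0.86 for PS over C (95% interval -1.59 to 2.63, adjusted p = 0.788), -1.13 ± 0.86 for SS over C (-3.24 to 0.98, adjusted p = 0.487) and 1.65 ± 0.86 for PS over SS (-0.46 to 3.77, adjusted p = 0.444). Single libraries decide these values. Without PS replicate 2, PS over C was 2.05 (adjusted p = 0.0458) and PS over SS 3.18 (adjusted p = 0.000465), and without PS replicate 1 they were -1.0 and 0.13.

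Within a library the family's makeup can be compared without any scaling between libraries. The values still had 1 factor of unwanted variation taken out across libraries, so the replicate differences given here are not those of the reads. The summed FPKM of the 5 genes was 740 and 757 in the PS, 577 and 631 in the SS, and 528 and 473 in the cardiac tube. Of this sum soxC took 41.1% and 41.3% in the PS, 33.9% and 33.6% in the SS, and 48.2% and 48.3% in the cardiac tube, so the 3 parts were apart by more than the replicates differed. The share of soxF was 24.1% and 24.2% in the PS, 26.9% and 20.5% in the SS, and 16.0% and 20.2% in the cardiac tube, and the SS nearly met the cardiac tube. The share of soxh was 0.635% and 0.415% in the PS, 4.02% and 5.05% in the SS, and 0.650% and 0.737% in the cardiac tube. The ratio of soxF to soxC was 0.587 and 0.585 in the PS, 0.793 and 0.609 in the SS, and 0.332 and 0.418 in the cardiac tube, higher in every sinus library. The ratio of soxB2 to soxC was 0.799 and 0.822 in the PS, 1.03 and 1.21 in the SS, and 0.726 and 0.617 in the cardiac tube, highest in the SS.

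**Figure D5:**
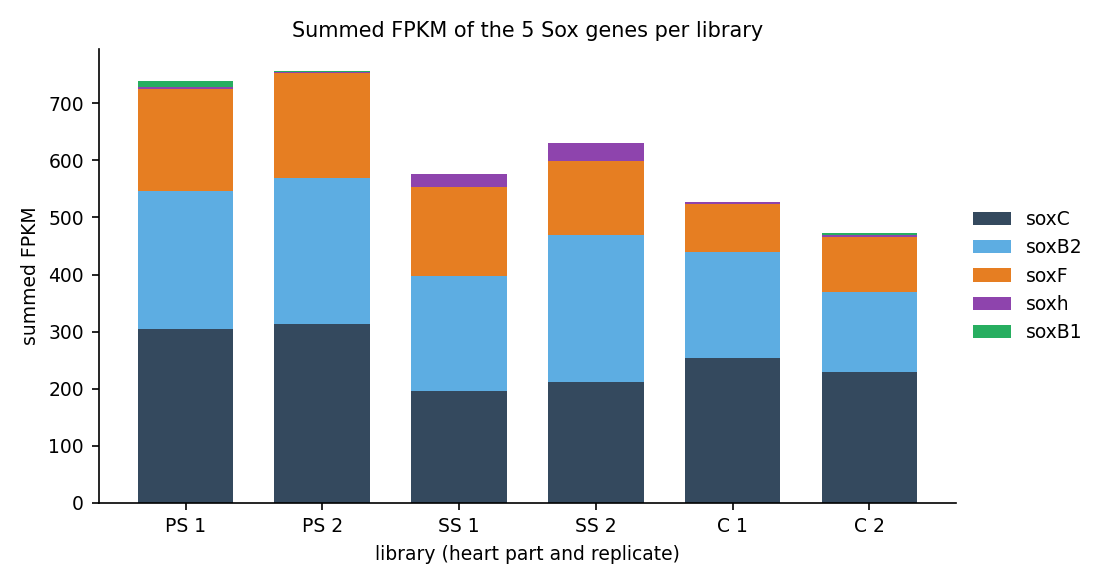
Summed FPKM of the 5 Sox genes (y axis) in each of the 6 libraries, stacked by gene; PS is the pharyngeal blood sinus, SS the stomach blood sinus and C the cardiac tube. The sum was 740 and 757 FPKM in the PS, 577 and 631 FPKM in the SS, and 528 and 473 FPKM in the cardiac tube, and the soxh band is visible in the SS libraries.

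Related genes gave a background for the family. Of 6 other symbols with HMG-box names (hmg1/2, hmg2-like, ssrp1, tcf/lef, tcfl1 and ubf), none passed by limma in any comparison, and at an unadjusted p under 0.05 there were 0 in each pairwise comparison and 1 with the sinuses averaged. Their median log2 fold change was -0.06 in the PS and 0.13 in the SS. The most abundant was hmg1/2, an HMGB-type chromatin protein by its symbol, with 1851 and 1513 FPKM in the PS, 1850 and 2426 FPKM in the SS, and 2044 and 1885 FPKM in the cardiac tube. The Wnt effector tcf/lef had 178 and 192 FPKM in the PS, 205 and 187 FPKM in the SS, and 177 and 177 FPKM in the cardiac tube. Of 6 symbols of families that supply Sox partners, pax3/7-like passed higher (4.34 ± 0.42, adjusted p = 0.00693) and foxa-a lower (-2.05 ± 0.41, adjusted p = 0.0415) in the PS against C. The levels of foxa-a were low, with 0.417 and 0.627 FPKM in the PS and 6.11 and 4.58 FPKM in the cardiac tube. None passed in the SS, where foxa-a had an unadjusted p of 0.00597. The symbol pou-like, of the POU family that pairs with group B proteins in vertebrates, had a log2 fold change of -0.02 ± 0.22 in the PS and 0.24 ± 0.22 in the SS (adjusted p = 0.976 and 0.559). Of 7 matrix and neural crest-like symbols, the setting of group E, none passed by limma, with 0 at an unadjusted p under 0.05 in the PS and 1 higher and 2 lower in the SS.

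Markers of other tissues were summed beside the Sox levels, and none of the heart muscle, endostyle, gut and blood cell symbols passed by limma in the SS against C. At an unadjusted p under 0.05 in that comparison, 2 heart muscle symbols were lower, 1 gut symbol higher and 1 lower, and 1 blood cell symbol lower. Of the endostyle and pharynx list, 2 were higher by the same measure, tgfbeta2 and sfrp3/4-b. The symbol endostyle-specific was not among them, with a log2 fold change of -0.13 ± 1.02. All 3 heart muscle symbols had negative fold changes in both sinuses, and nk4 and smyd1 passed lower in the PS (adjusted p = 0.0255 and 0.0385). The 3 endostyle and pharynx symbols summed to 632 and 1491 FPKM in the PS, 405 and 426 FPKM in the SS, and 304 and 275 FPKM in the cardiac tube, with none at 0. In the PS against C 2 of 3 passed higher by limma, tgfbeta2 (adjusted p = 0.0268) and sfrp3/4-b (0.0255). The symbol endostyle-specific did not pass there (adjusted p = 0.0583), and its PS libraries were far apart, at 128 and 1010 FPKM. The 5 stomach and gut symbols summed to 302 and 313 FPKM in the PS, 341 and 388 FPKM in the SS, and 323 and 298 FPKM in the cardiac tube. Of these foxa-a was lower in the PS, at low levels (0.417 and 0.627 FPKM, beside 6.11 and 4.58 FPKM in the cardiac tube). The symbol hnf1 was at 0 in both PS libraries and in cardiac tube replicate 2. The 11 blood cell symbols summed to 18553 and 15473 FPKM in the PS, 10594 and 12629 FPKM in the SS, and 13968 and 13456 FPKM in the cardiac tube, with none at 0 and none called. What part these tissues have in the soxF, soxB2 and soxC levels was not tested.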

How the data were processed

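RNA-seq of 6 libraries was used, 2 from each of 3 heart parts. Per the study's methods, adapters were trimmed with cutadapt, reads were aligned with STAR to the UCSC Ciona genome ci3 and uniquely aligned reads were counted with featureCounts. Normalization by the authors used DESeq2 with 1 RUVs factor of unwanted variation taken out. Adjusted values, deposited as a whole-number score under a header that calls them raw, are what the authors' FPKM were computed from. Over 179 genes with a mean above 1000, 1 weighted sum of the replicate differences was near 0 throughout (largest 0.000695, beside a median difference of 0.0835), so they are not reads and no count model was used. FPKM implied a whole gene length, within 0.01 bases, for 100% of 793 genes. This held with a median-ratio size factor per library times the geometric mean of the library totals of those genes, and not with each library's own total.

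The deposited log2 fold changes and each p-value of the authors' own comparisons (9 columns) were not used.

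Levels were fitted as log2(FPKM + 1) with limma 3.58.1 in R 4.3.3, over all 6 libraries, with 3 groups, a term for the removed factor, a mean-variance trend, and no filter. This left 2 residual and 4.02 prior degrees of freedom. P-values were adjusted by Benjamini-Hochberg over 793 genes. A fold change on this scale understates that of low genes. The fit was tested on simulated data with 200 of 793 genes changed, over 20 runs. That is a larger share than was called in the data, so the rates need not hold for the real comparisons. For PS against C it called 67.05% of 2-fold and 88.1% of 4-fold changes, and for SS against C 65.6% and 88.4%. Of the genes called, 3.87% and 3.72% were unchanged, so a 2-fold change could often fail to pass.

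Members, lists and tests were chosen with earlier results of these data known. Named were all Sox genes, list members that passed, and the 3 genes most like each Sox gene that passed, of which 1 is not reported here; other list members were named after their values were seen. Lists were matched on the start of symbols, and wrong matches by name, such as lefty/antivin for the HMG-box list, were left out. Alternatives covered the pseudocount, a filter, the adjusted values, the factor term, the trend, a replicate block, each library left out and, chosen after seeing the data, scaling to the total.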

Additional observations from a re-analysis of the deposited data

Results flagged for a closer look

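The effect on soxh differed between the sinuses. Against the cardiac tube its log2 fold change was 0.12 ± 0.38 in the PS and 2.66 ± 0.38 in the SS. The direct test of the difference gave -2.54 (limma adjusted p = 0.0457). Over 16 alternatives this value lay between -2.86 and -1.42 and passed in 8 of them. Both PS libraries were lower than both SS libraries, and 51.5% of all genes likewise had no overlap between PS and SS.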

How the results depend on the processing

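Of 316 single-gene values recomputed, 259 kept direction and side of the threshold, 27 lost the call, 20 gained it and 10 changed sign. The numbers below are all genes called and then Sox genes called, for PS against C (59 and 1), SS against C (13 and 1), PS against SS (10 and 1) and the averaged sinuses against C (49 and 1). Without the term for the removed factor they were 151 and 2, 113 and 2, 33 and 2, and 175 and 2. Without the trend they were 13 and 0 for PS against C, 0 and 0 for SS against C, and 1 and 0 for the averaged sinuses. With a replicate block added to the factor term, all were 0, with 1 residual degree of freedom; with the block in place of that term no count moved by over 1.5 times. The replicate differences of the groups correlated at -0.51, -0.42 and -0.55 over 732 genes; the removed factor had nearly equal weights in the 3 groups, so these negative values follow from taking it out, and the numbers are not shown to pair the samples. For SS against C the counts were 2 and 0 with a pseudocount of 0.1, 2 and 0 with 10, 0 and 0 with adjusted values, and 26 genes with means under 5 FPKM left out. For PS against SS they were 2 and 0 with a pseudocount of 0.1, 3 and 0 with low genes left out, and 0 Sox genes with adjusted values.

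Scaling to the total, chosen after seeing the data, gave 123 genes (112 higher and 11 lower, beside 40 and 19 without it) and 3 Sox genes for PS against C. It gave 115 (113 higher and 2 lower, beside 10 and 3) and 3 for SS against C, 21 for PS against SS, and 177 (167 higher and 10 lower, beside 26 and 23) and 4 for the averaged sinuses. Without if-a in the total it gave 83 genes (74 higher, 9 lower) and 3 Sox genes for PS against C, 27 genes for SS against C (27 higher, 0 lower), and 82 (72 higher, 10 lower) and 3 for the averaged sinuses. Leaving out single libraries gave 0 to 79 genes and 0 to 2 Sox genes for PS against C, 0 to 92 and 0 to 1 for SS against C, 0 to 57 and 0 to 2 for PS against SS, and 0 to 113 and 0 to 3 for the averaged sinuses; those fits have 1 residual degree of freedom and assume that a lone library varies like the others. Signs turned for soxB1 in PS against C without PS replicate 1 (-1.0) or cardiac tube replicate 1 (-0.72; range -1.0 to 2.05 over libraries left out), in SS against C without cardiac tube replicate 2 (0.12; range -2.38 to 0.12), and for the averaged sinuses without PS replicate 2 (0.46) or cardiac tube replicate 2 (0.94; range -1.55 to 0.94). They also turned for soxh in PS against C without PS replicate 1 (-0.20; range -0.20 to 0.45), soxB2 in PS against SS without SS replicate 1 (-0.12; range -0.12 to 0.38), soxC for the averaged sinuses without cardiac tube replicate 2 (-0.066; range -0.066 to 0.18), and soxC in SS against C under both total scalings (0.17 and 0.089). The cause of these changes was not tested. The order of the Sox genes by level was the same in each part with adjusted values per kilobase.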
